A study of Mus musculus with 12 samples.

Results

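*Srp54a*, *Srp54b*, *Srp54c* and *Fam177a* are neighbouring genes on mouse chromosome 12. They are followed here through bulk RNAseq of dissected cortex from WT and *Gde2*KO mice aged 4 or 19 months, with 3 libraries in each of the 4 groups. The genes were taken by their symbols, 4 of 36047 genes in the tables, and together they had 13 of 118489 transcripts. They had been chosen by their normalized counts in these same libraries, which differed between the genotypes, so their differences are given as a description, with no test. *Gde2*KO mice are *Gde2*-/- animals, a null in all tissues of the gene for GDE2, listed as *Gdpd5*, and WT mice are their controls. GDE2 is a membrane enzyme that cleaves the anchor of some surface proteins. The study used male and female mice. Each library holds RNA of all cells of a dissected cortex, in which a change in the number of cells and a change in RNA per cell cannot be told apart.

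*Srp54* encodes the GTPase subunit of the signal recognition particle (SRP), a complex of RNA and protein. SRP54 binds the signal sequence of a secreted or membrane protein as it leaves the ribosome, and the complex then docks at its receptor on the endoplasmic reticulum (ER), where the chain is passed to the Sec61 translocon. Every cell type uses this route, and neurons rely on it for receptors, channels and secreted peptides. The human genome has a single SRP54 gene, whereas the mouse reference holds a row of copies, in which a copy of *Fam177a* lies between one *Srp54* copy and the next.

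On GRCm38 all 4 genes lie on the plus strand. *Srp54a* is at chr12:55080262-55115367, *Fam177a* at chr12:55124469-55142104, *Srp54b* at chr12:55155104-55189573 and *Srp54c* at chr12:55230168-55263836. A second copy of *Fam177a*, *1700047I17Rik2*, lies between *Srp54b* and *Srp54c* at chr12:55199592-55217168. The coding sequences of *Srp54a* and *Srp54b* are identical over 1515 bases. *Srp54c* differs from both at 6 bases (99.6% identity), counted from 1 at the first base of the start codon: T501C, T945C, G946A, T965G, A1197T and G1249A, with the base of *Srp54a* first. These fall in 6 codons, of which 4 encode another residue and 2 the same one. Of the differences, 3 lie in 1 coding exon, exon 10 of transcript Srp54a-201, which is shown for the 3 copies because it holds 3 of the bases at which a read can tell *Srp54c* from the others. Capitals mark the 3 bases that differ. The exon spans chr12:55102468-55102554 in *Srp54a*, chr12:55177528-55177614 in *Srp54b* and chr12:55252772-55252858 in *Srp54c*, read 5′ to 3′ on the plus strand.
Srp54a: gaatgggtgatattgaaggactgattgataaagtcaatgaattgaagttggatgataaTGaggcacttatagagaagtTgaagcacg
Srp54b: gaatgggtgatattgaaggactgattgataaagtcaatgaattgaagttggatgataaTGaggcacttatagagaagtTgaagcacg
Srp54c: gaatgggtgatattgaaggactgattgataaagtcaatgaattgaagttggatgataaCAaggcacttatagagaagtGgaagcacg

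The authors' quantifier, kallisto, assigns reads by stretches of 31 bases, so the number of such stretches that occur in 1 gene alone shows how far its level rests on reads of its own. Srp54a-202, the long coding transcript of *Srp54a*, had 1026 of 4468 stretches found in no other gene (23.0%). Srp54c-202, the long coding transcript of *Srp54c*, had 144 of 3612 (3.99%). Srp54b-201, the coding transcript of *Srp54b*, had 0 of 3616, and its level was therefore inferred from the division of shared reads. *Fam177a* had 59 of 3892 (1.52%), and the whole 3863-base transcript of *1700047I17Rik2* was contained in that of *Fam177a*. The quantifier placed all shared reads on *Fam177a*, since *1700047I17Rik2* was listed at 0 in all 12 libraries. *Fam177a* also shared 1611 stretches (41.4%) with *Ppp2r3c* on the opposite strand, and the source used here does not state that the libraries kept strand. The levels of single copies are thus uncertain, and the sum over the 3 *Srp54* copies is given beside them.

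A further pair of sequences is shown because 1 of them, Srp54a-206, was at or near 0 in 6 of the 12 libraries. Srp54a-206 and Srp54b-202 are short transcripts with no annotated coding sequence, 580 bases each, which differ at 5 positions counted from their 5′ ends: G35T, A95G, T162C, G167A and G567A, with the base of Srp54a-206 first. Only 14 stretches of 31 bases belong to Srp54a-206 alone, and all of them span the last difference. Positions 521 to 580 are shown with that base in capitals, at chr12:55089479-55089538 for Srp54a-206 and chr12:55164539-55164598 for Srp54b-202. In Srp54a-201 this stretch is intron, after the coding exon at chr12:55089202-55089279.
Srp54a-206: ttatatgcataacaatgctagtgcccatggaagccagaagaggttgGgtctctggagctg
Srp54b-202: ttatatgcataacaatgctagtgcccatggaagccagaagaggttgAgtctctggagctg

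Levels are normalized counts as deposited, estimated read counts divided by a factor for each library and summed over the transcripts of a gene. The 4-month libraries held 46434259 to 59728495 estimated reads. At 19 months 4 libraries held 36915256 to 44604732, but WT library A held 6734475 and *Gde2*KO library A 3707928, and a single read stood for 4.66 and 8.29 normalized counts in these 2 libraries. Even so, the smallest gene value among the *Srp54* copies and *Fam177a* rested on 111 estimated reads. Columns at 19 months carry no replicate number, and their libraries are called A, B and C. *Gdpd5*, the targeted gene, stood at 684 to 1199 normalized counts in WT and 403 to 585 in *Gde2*KO at 4 months (limma adjusted p = 0.463) and at 952 to 1129 against 441 to 560.1 at 19 months (limma adjusted p = 0.0111), without overlap at either age on this scale. On TPM, which scales each transcript by its length, its genotypes overlapped at 4 months, at 12.3 to 24.4 in WT and 8.87 to 14.9 in *Gde2*KO, and did not at 19 months. Libraries also differed in the brain regions and sexes they reflect. At 4 months WT replicates 1 and 2 had summed hippocampal markers of 31622 and 28638 normalized counts against 6313 to 9320 in the other 4 libraries, and summed striatal markers of 5484 and 3478 against 30726 to 73326. Endothelial markers did not overlap between the genotypes at that age, at 4104 to 5278 in WT and 5373 to 5857 in *Gde2*KO, and the other cell type and region lists did. The summed level of 4 Y-linked genes stood at 251 to 370 normalized counts at 4 months and in *Gde2*KO library A at 19 months, and at 4224 to 4797 in the other 5 libraries at 19 months. At 19 months summed hippocampal markers ran from 5236 to 5587 in WT and from 6908 to 7892 in *Gde2*KO. Neuronal markers ran from 228505 to 234958 and from 211595 to 223000, and astrocyte markers from 89185 to 95759 and from 98234 to 106595. The genotypes were apart in these lists and overlapped in the other cell type and region lists of that age. The part of all these differences in the levels below was not tested, and only values with libraries left out are given.

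At 4 months *Srp54a*, *Srp54b* and *Fam177a* were 2.32- to 2.73-fold higher in *Gde2*KO than in WT cortex, while *Srp54c* was not separated between the genotypes. At 19 months the order was turned round, with the same 3 genes lower in *Gde2*KO, at 0.481 to 0.620 of the WT mean, and *Srp54c* again was not separated. In both comparisons the 3 genes had no overlap between the libraries of the 2 genotypes. Of 18040 genes tested at both ages, 11.5% had *Gde2*KO above WT without overlap at 4 months, 8.31% had *Gde2*KO below WT without overlap at 19 months, and 212 (1.18%) had both. Because the genes were chosen for these contrasts, nothing is read from their share.

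*Srp54a* stood at 1408, 1482 and 1377 normalized counts in the WT cortices and at 3316, 2913 and 4377 in the *Gde2*KO cortices at 4 months. At 19 months it stood at 1461, 1852 and 2362 in WT libraries A, B and C and at 1221, 970.02 and 1199.7 in *Gde2*KO libraries A, B and C. The lowest *Gde2*KO library at 4 months was above every WT library of either age, and the highest *Gde2*KO library at 19 months was below every WT library of either age. The means were 1422 ± 53.8 and 3536 ± 756 (SD, n = 3) at 4 months, a 2.49-fold difference, and 1892 ± 452 and 1130.2 ± 139 (SD, n = 3) at 19 months, a ratio of 0.597. On the log2 scale the differences, *Gde2*KO minus WT, were 1.29 (SE 0.16) and -0.72 (SE 0.17).

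*Srp54b*, whose coding sequence is that of *Srp54a*, followed the same order. Its 4-month values were 1325, 1062 and 1000.2 normalized counts in WT and 3212, 2485 and 3564 in *Gde2*KO. Its 19-month values were 1941, 1556 and 2428 in WT and 925, 1125 and 798 in *Gde2*KO. Every *Gde2*KO library was above every WT library at 4 months and below every WT library at 19 months. The means of 1129 ± 172 and 3087 ± 550.3 (SD, n = 3) at 4 months differed 2.73-fold, and those of 1975 ± 437 and 949 ± 165 (SD, n = 3) at 19 months gave a ratio of 0.481. The log2 differences were 1.45 (SE 0.18) and -1.05 (SE 0.17) on normalized counts. On summed TPM, which scales each transcript by its length, the 4-month difference was smaller, at 1.13 on the log2 scale.

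*Srp54c* went its own way. At 4 months it stood at 2370.5, 2306 and 2193 normalized counts in WT and at 2496, 2055 and 3449.5 in *Gde2*KO, so that the *Gde2*KO libraries lay on both sides of the WT libraries. At 19 months WT libraries A, B and C held 1583, 1669 and 1829 normalized counts and *Gde2*KO libraries 1952, 1712 and 1991, which also overlapped. The means were 2290 ± 89.9 and 2667 ± 713 (SD, n = 3) at 4 months and 1694 ± 125 and 1885 ± 151 (SD, n = 3) at 19 months, ratios of 1.16 and 1.11. The log2 differences were 0.19 (SE 0.19) and 0.15 (SE 0.08). The first rested on *Gde2*KO replicate 3, without which it was -0.02.

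Summed over the 3 copies, *Srp54* stood at 5104, 4849.8 and 4569.8 normalized counts in WT and 9024, 7453 and 11390.3 in *Gde2*KO at 4 months. At 19 months the sums were 4985, 5077 and 6619 in WT and 4097, 3808 and 3989 in *Gde2*KO. The genotypes did not overlap in the sum at either age, so the opposite order at the 2 ages did not depend on how reads were divided among the copies. Mean sums were 4841 ± 267 and 9289 ± 1982 (SD, n = 3) at 4 months, 1.92-fold higher in *Gde2*KO, and 5561 ± 918 and 3965 ± 146 (SD, n = 3) at 19 months, a ratio of 0.713. *Gde2*KO replicate 3 at 4 months, the highest library for each copy, also had the largest total, 41229086 normalized counts against 31917431 to 35949224 in the other 4-month libraries.

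*Fam177a*, which lies between *Srp54a* and *Srp54b*, moved with them. It stood at 854, 857 and 798 normalized counts in WT and at 1904, 1676 and 2235 in *Gde2*KO at 4 months, and at 1309, 1116 and 1556 in WT and 924, 734 and 810.3 in *Gde2*KO at 19 months. No *Gde2*KO library overlapped the WT libraries of its age. The means of 836 ± 33.4 and 1938 ± 281 (SD, n = 3) at 4 months differed 2.32-fold, and those of 1327 ± 220.4 and 823 ± 95.7 (SD, n = 3) at 19 months gave a ratio of 0.620. The log2 differences were 1.20 (SE 0.14) and -0.68 (SE 0.13).

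**Figure D1:**
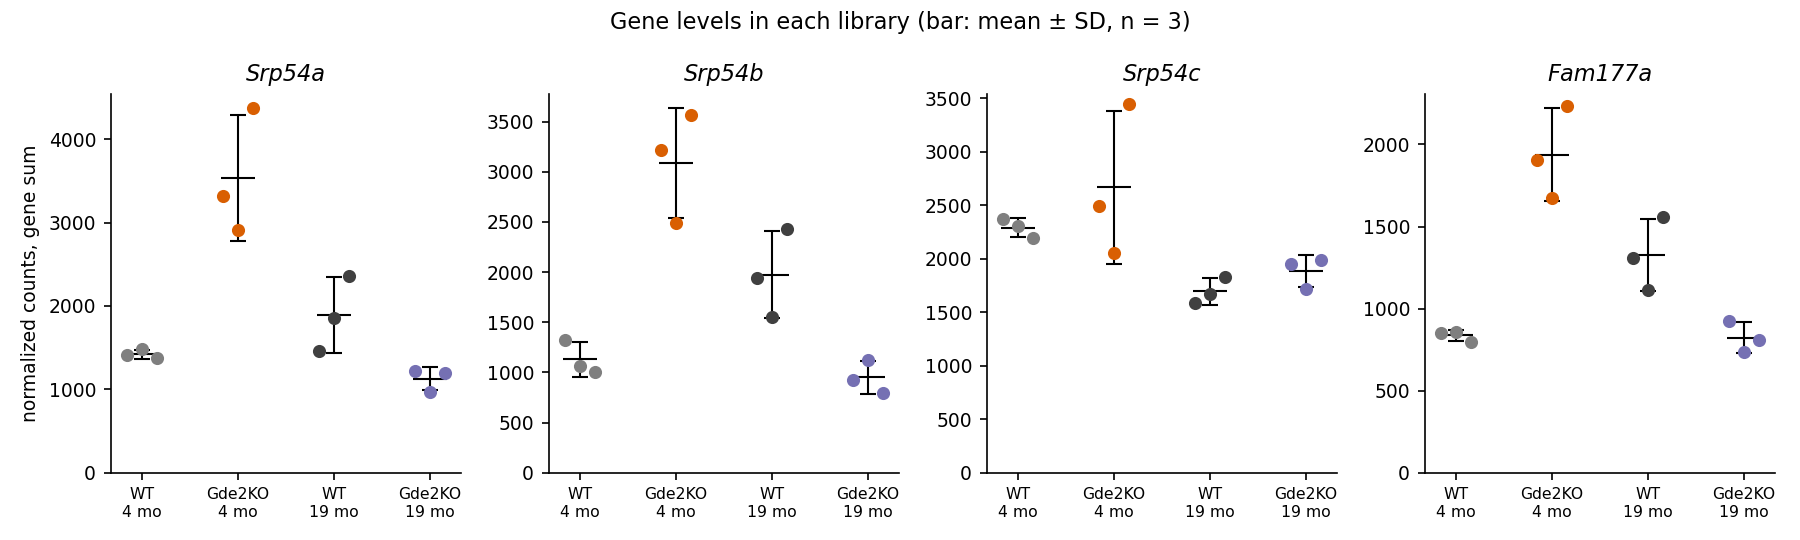
Normalized counts (y axis, gene sums) of *Srp54a*, *Srp54b*, *Srp54c* and *Fam177a* in each of the 12 libraries, by genotype and age; points are libraries and bars are mean ± SD, n = 3. *Gde2*KO points lie above WT at 4 months and below WT at 19 months for *Srp54a*, *Srp54b* and *Fam177a*, and among them for *Srp54c*.

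Over the whole tables, limma called 24 of 19035 genes at 4 months (0.126%), 18 of 18583 at 19 months (0.0969%) and 9 of 18731 for a genotype difference that changed with age (0.048%). *Srp54a*, *Srp54b* and *Fam177a* were in the first and the last of these sets, which follows from how they were chosen and is not read as a result. None of the 4 genes was in the second, so their 19-month differences did not reach the threshold for a call. Over the 16 settings tried at 4 months, *Srp54a* was in the called set under 8, *Srp54b* under 10 and *Fam177a* under 9. With a replicate block *Srp54b* alone stayed in it, and with no filter *Fam177a* alone. At 19 months *Srp54b* entered the called set under 1 of 15 settings, without *Gde2*KO library B. A call needed a limma adjusted p under 0.1 and, within an age, a natural-log fold change over 0.5. The median log2 difference over all genes was 0.11 at 4 months and -0.02 at 19 months. With the libraries rescaled so that the median gene had no shift, the 4-month log2 differences were 1.20 for *Srp54a*, 1.35 for *Srp54b*, 0.09 for *Srp54c* and 1.11 for *Fam177a*. With WT replicates 1 and 2 left out, the libraries rich in hippocampal markers, they were 1.34, 1.61, 0.25 and 1.27 in the same order, against a single WT library, so that WT then had no spread of its own. Without the 2 libraries of low depth, 1 of which is the *Gde2*KO library with low Y-linked levels, the 19-month log2 differences were -0.96, -1.04, 0.08 and -0.77.

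Ordered by their means, *Srp54a*, *Srp54b* and *Fam177a* were highest in *Gde2*KO at 4 months, then in WT at 19 months, WT at 4 months and *Gde2*KO at 19 months. *Gde2*KO at 4 months was clear of all other groups for the 3 genes. WT at 19 and at 4 months overlapped for *Srp54a* and did not for *Srp54b* and *Fam177a*, which were 1.75- and 1.59-fold higher at 19 months. The 2 lowest groups, WT at 4 months and *Gde2*KO at 19 months, overlapped for *Srp54b* and *Fam177a* and did not for *Srp54a*. Within *Gde2*KO the 19-month means were 0.320 of the 4-month mean for *Srp54a*, 0.308 for *Srp54b* and 0.425 for *Fam177a*. *Srp54c* had another order, with both 4-month groups above both 19-month groups, and ratios of 19 to 4 months of 0.740 in WT and 0.707 in *Gde2*KO. Age and the level of Y-linked genes differ together here in 5 of the 6 older libraries and, for those, cannot be told apart.

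Per transcript length, the order among the genes changed with the group. On the TPM scale the WT cortices at 4 months held *Srp54c* at 51.0, *Srp54a* at 43.5, *Srp54b* at 38.4 and *Fam177a* at 11.9. In *Gde2*KO at 4 months the means were 105 for *Srp54a*, 83.7 for *Srp54b*, 61.0 for *Srp54c* and 26.6 for *Fam177a*. *Srp54c* was thus the most abundant copy in the first group and the least abundant in the second. At 19 months WT held *Srp54b* at 57.9, *Srp54a* at 54.6 and *Srp54c* at 41.4 TPM, whereas *Gde2*KO held *Srp54c* at 42.7, *Srp54a* at 34.5 and *Srp54b* at 34.3. *Fam177a* was lowest throughout, at 18.7 TPM in WT and 11.6 in *Gde2*KO at 19 months.

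The share of *Srp54c* in the summed TPM of the copies does not depend on the scaling of a library. It was 38.5%, 38.1% and 38.6% in the WT cortices at 4 months and 24.4%, 21.2% and 26.8% in *Gde2*KO. At 19 months it was 29.7%, 28.5% and 23.7% in WT and 34.8%, 40.6% and 40.6% in *Gde2*KO. The genotypes were apart at both ages and in opposite directions, so that *Gde2*KO at 4 months sat with WT at 19 months and WT at 4 months with *Gde2*KO at 19 months. The mean shares were 38.4% ± 0.294 and 24.2% ± 2.80 (SD, n = 3) at 4 months and 27.3% ± 3.20 and 38.7% ± 3.32 (SD, n = 3) at 19 months.

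**Figure D2:**
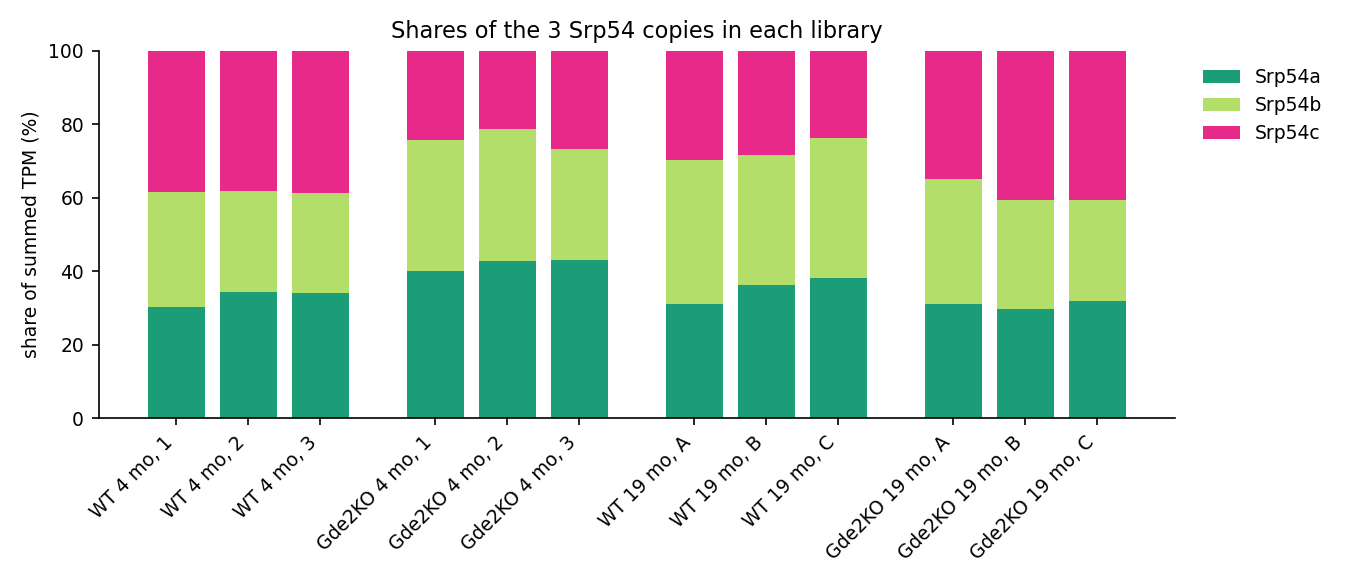
Shares (y axis, percent of the summed TPM) of *Srp54a*, *Srp54b* and *Srp54c* in each library, stacked to 100%, with libraries on the x axis by genotype and age. The *Srp54c* share lies between 21.2% and 29.7% in the *Gde2*KO libraries at 4 months and the WT libraries at 19 months, and between 34.8% and 40.6% in the other 6.

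Of the 13 transcripts, 8 had a mean share of 5% or more of their gene's TPM in some group, and the other 5 did not exceed 31.1 normalized counts in any library. Srp54a-206, of which the last bases are shown above, was listed at 0, 0.680 and 0 normalized counts in the WT cortices at 4 months and at 129.5, 127 and 125 in *Gde2*KO. At 19 months it stood at 23.3, 14.1 and 109 normalized counts in WT libraries A, B and C and at 0 in all 3 *Gde2*KO libraries. The transcript was thus near or at 0 in 6 libraries and above 14 normalized counts in the other 6, which were the 4-month *Gde2*KO and the 19-month WT libraries. A count of 0 allows up to 3 reads, 2.16 and 1.79 normalized counts in WT replicates 1 and 3 at 4 months and 24.9, 2.11 and 2.34 in *Gde2*KO libraries A, B and C at 19 months, for counting error only. *Gde2*KO library A therefore could not show a level like that of WT libraries A and B. In share of *Srp54a* TPM, Srp54a-206 made up 21.8%, 22.6% and 15.4% in *Gde2*KO and at most 0.247% in WT at 4 months, and 9.10%, 4.54% and 24.5% in WT and 0% in *Gde2*KO at 19 months.

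Srp54b-202, its counterpart from *Srp54b*, was listed above 0 in all 12 libraries, at 158, 130.4 and 127 normalized counts in WT and 247, 251 and 255 in *Gde2*KO at 4 months, without overlap. At 19 months it stood at 130.1, 164 and 229 in WT and at 181, 72.9 and 109 in *Gde2*KO, with overlap. Reads were hence assigned to the copy from *Srp54b* where that from *Srp54a* was at or near 0. The 2 transcripts are 99.1% identical, and each has only 14 of 550 stretches found in it alone. The division of reads between them is thus uncertain, and presence of 1 without the other was not tested.

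Among the coding transcripts, Srp54a-202, the one with the most sequence of its own, stood at 579, 591 and 547 normalized counts in WT and 1954, 1540.1 and 2215 in *Gde2*KO at 4 months. At 19 months it stood at 788, 989.9 and 1356 in WT and 408, 414 and 552 in *Gde2*KO. The genotypes were apart at both ages, as they were for *Srp54a* as a whole. Srp54a-201, which holds only the coding bases and has no stretch of its own, was at 813 to 879 in WT and 1203 to 2010.1 in *Gde2*KO at 4 months, and overlapped at 19 months at 644 to 891 and 547 to 808. Srp54b-201 stood at 870.1 to 1159 in WT and 2209 to 3301 in *Gde2*KO at 4 months, and at 1381 to 2187 and 679.8 to 1044 at 19 months.

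The 2 coding transcripts of *Srp54c* were assigned different patterns. Among the 8 transcripts, Srp54c-202 was the only one that was lower in *Gde2*KO at 4 months and higher at 19 months without overlap. It stood at 589.5, 817 and 787 normalized counts in WT and 372, 569.8 and 386 in *Gde2*KO at 4 months, and at 0, 271 and 161 in WT and 423, 414 and 696 in *Gde2*KO at 19 months. The 0 was in WT library A, where it allows up to 14.0 normalized counts. Srp54c-201 ran from 1405 to 1781 in WT and from 1485 to 3063 in *Gde2*KO at 4 months, and from 1398 to 1667 and 1295 to 1528 at 19 months, overlapping at both ages. The same 144 stretches of 31 bases set both transcripts apart from *Srp54a* and *Srp54b*, and neither has a stretch found in it alone. Srp54c-202 shared 3468 of its 3612 stretches with *Srp54b*. The division of reads among these transcripts is thus uncertain, and its part in their contrast was not tested.

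**Figure D3:**
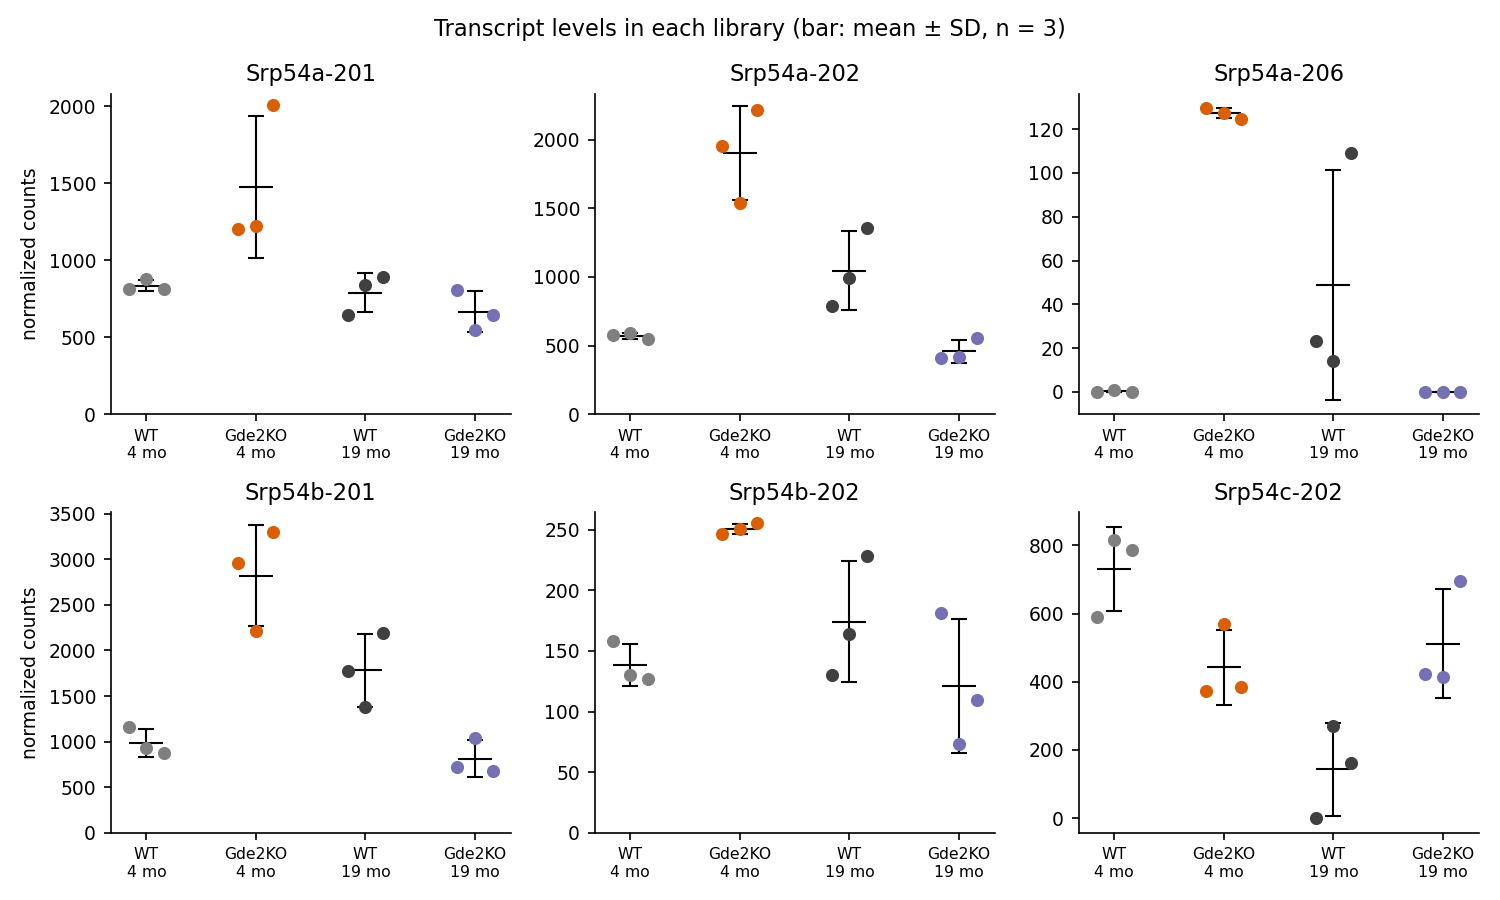
Normalized counts (y axis, own scale in each panel) of 6 transcripts in each library, by genotype and age; points are libraries and bars are mean ± SD, n = 3. Srp54a-206 is at or near 0 in WT at 4 months and *Gde2*KO at 19 months, and Srp54c-202 as quantified runs against the other transcripts. The division of shared reads is uncertain.

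Across the 12 libraries the levels of *Srp54a* and *Srp54b* had a Pearson r of 0.914, and *Fam177a* had an r of 0.949 with *Srp54a* and of 0.959 with *Srp54b*. *Srp54c* had an r of 0.610 with *Srp54a*, 0.391 with *Srp54b* and 0.424 with *Fam177a*. These correlations describe 12 libraries in 4 groups, with reads shared between the copies. Among 18727 genes compared, those most like the *Srp54* sum were *Rabl3* (r = 0.951), *Cfl2* (r = 0.950), *Fkbp3* (r = 0.950), *Rbm34* (r = 0.938) and *Tob1* (r = 0.937), and those most like *Fam177a* were *Mid1* (r = 0.922), *Nfil3* (r = 0.922), *Mia2* (r = 0.917), *Prmt3* (r = 0.896) and *1700019D03Rik* (r = 0.895). *Cfl2*, *Fkbp3* and *Mia2* also lie on chromosome 12, but the share of all compared genes on that chromosome was not counted, so nothing is read from this. *Cfl2* lies 217 kb before *Srp54a*. It stood at 1655 to 1777 normalized counts in WT and 2022 to 3353 in *Gde2*KO at 4 months, without overlap (limma adjusted p = 0.463). At 19 months it stood at 1551 to 1792 and 1388 to 1567, with overlap (limma adjusted p = 0.715). Of these 10 genes *Mid1*, a ubiquitin ligase gene on the X chromosome, was the only one called, for its change with age (log2 -1.39, SE 0.20, limma adjusted p = 0.0305). *Mid1* stood at 892 to 1120 in WT and 1500.5 to 2208 in *Gde2*KO at 4 months, and at 1370 to 1476 and 961 to 1075 normalized counts at 19 months. The 10 genes were picked for their likeness over these same libraries, so this call is not read as a result.

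Genes on either side of the row were not called between the genotypes. The nearest tested neighbour before *Srp54a*, *2700097O09Rik*, lies 0.152 kb away and stood at 230 to 275 normalized counts in WT and 243 to 318 in *Gde2*KO at 4 months, and at 328 to 372 and 307 to 362 at 19 months (limma adjusted p = 0.808 and 0.895). *Baz1a*, which encodes a chromatin remodelling subunit, lies 65.9 kb before *Srp54a* and had log2 differences of 0.58 (SE 0.29, limma adjusted p = 0.476) and -0.31 (SE 0.38, adjusted p = 0.822). It was at 106 and 95.6 normalized counts in WT replicates 1 and 2 and at 199 in WT replicate 3 at 4 months. After *Srp54c*, the pseudogene *Gm49376* at 11.5 kb had at most 15.0 normalized counts, with adjusted p values of 0.595 and 0.945. *Ppp2r3c*, which encodes a phosphatase 2A regulatory subunit and shares reads with *Fam177a*, lies at 15.2 kb on the minus strand at chr12:55278991-55302998. It stood at 717, 743 and 765 in WT and 926, 762 and 1483 in *Gde2*KO at 4 months, and at 776, 656 and 697 in WT and 709, 583 and 590.5 in *Gde2*KO at 19 months, overlapping at both ages. Its log2 differences were 0.45 (SE 0.23, adjusted p = 0.478) and -0.18 (SE 0.11, adjusted p = 0.734).

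Of the 19 tested genes within 1 Mb of the row, limma called 0 at 4 months, 0 of 17 at 19 months and 0 of 18 for the change with age, with 3, 1 and 2 of them at an unadjusted p under 0.05. Over all genes tested, 2025 of 19035, 1285 of 18583 and 2408 of 18731 were under it. With 0.126% or less of all genes called, 0 calls among so few is not read as an absence of change. The median log2 differences within 1 Mb were 0.24 at 4 months and -0.06 at 19 months, beside 0.11 and -0.02 over all genes. Without WT replicate 3 at 4 months, *Baz1a* (log2 0.91, limma adjusted p = 0.0492) and *Egln3* (log2 1.55, adjusted p = 0.006) were called, out of adjusted p values that ran up to 0.9999 over the alternatives. That setting leaves WT replicates 1 and 2, the libraries rich in hippocampal and poor in striatal markers. Genotype and brain region cannot be told apart in it. Between the *Srp54* copies lie 2 minus-strand pseudogenes. *Gm2446*, between *1700047I17Rik2* and *Srp54c*, stood at 4.45, 14.6 and 65.9 normalized counts in WT and 116, 136 and 199.9 in *Gde2*KO at 4 months, and at 71.8, 6.05 and 126 in WT and 27.3, 0 and 55.0 in *Gde2*KO at 19 months. It was not called (log2 3.11, SE 0.81, limma adjusted p = 0.463 at 4 months, and -2.09, SE 1.76, adjusted p = 0.760 at 19 months). *Gm2436*, between *Fam177a* and *Srp54b*, stood at 50.8, 47.5 and 0.637 in WT and 0, 0 and 68.4 in *Gde2*KO at 4 months. At 19 months it stood at 0, 77.3 and 0.0225 in WT and 0.322, 48.4 and 0 in *Gde2*KO, with no order by group. Within each group, libraries high in *Gm2436* were lowest in *Gm2446*, apart from *Gde2*KO replicate 3 at 4 months. Stretches shared by the 2 pseudogenes were not counted and their sum was not tested, so nothing is read from their single levels.

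**Figure D4:**
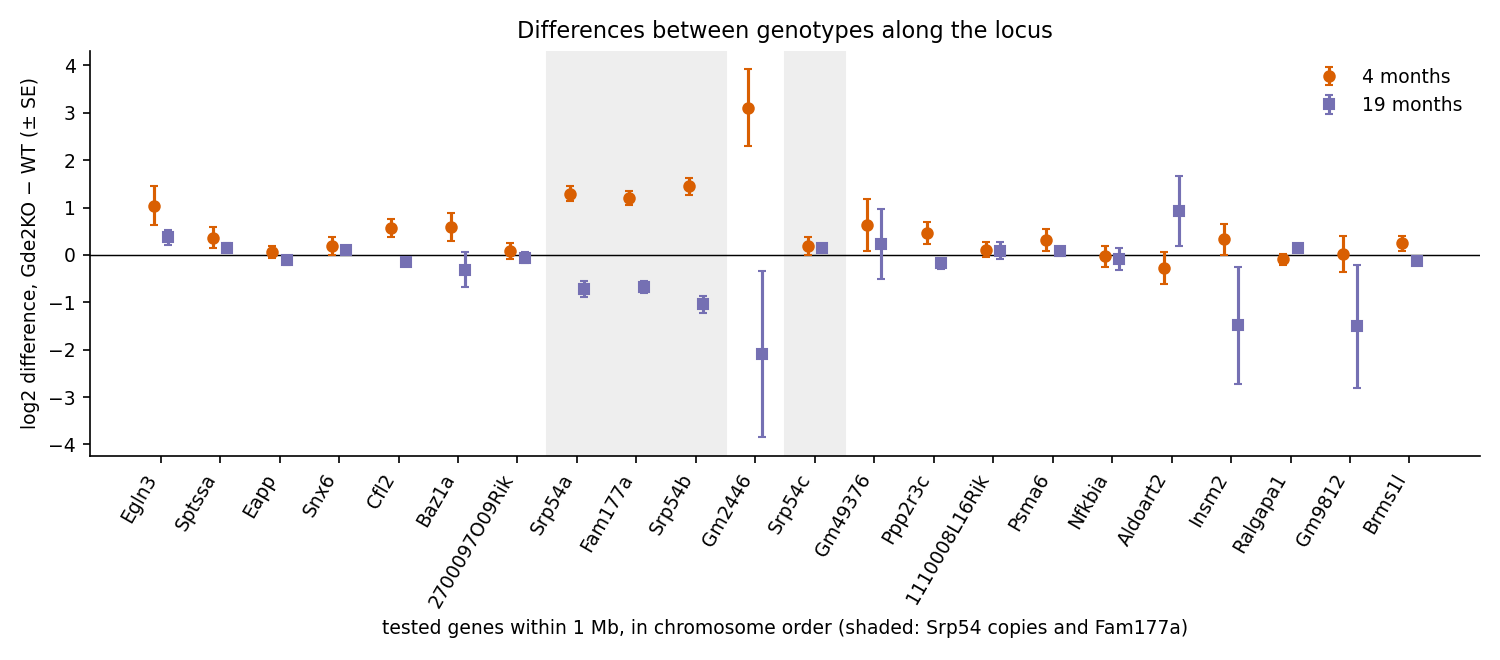
Log2 difference, *Gde2*KO minus WT (y axis, ± SE from limma), at 4 and 19 months for the genes within 1 Mb tested at both ages, in chromosome order on the x axis, with the *Srp54* copies and *Fam177a* shaded. *Srp54a*, *Fam177a* and *Srp54b*, which were chosen on these contrasts, lie above 0 at 4 months and below 0 at 19 months. *2700097O09Rik* before them and *Ppp2r3c* after *Srp54c* have differences between -0.18 and 0.45. *Gm2446* within the row lies at 3.11 and -2.09, uncalled. Of the tested genes outside the row, 15 were positive and 4 negative at 4 months, and 8 positive and 9 negative at 19 months.

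Among the other parts of the SRP route no gene was called. Of the 7 genes for the remaining SRP proteins and the SRP receptor, limma called 0 in each comparison, with 0 at an unadjusted p under 0.05 at 4 months, 1 at 19 months and 0 for the change with age. Over all genes, 0.126% or less were called, so 0 of 7 is not read as an absence of change. *Srp9* and *Srp14*, whose proteins form the domain that slows translation, had 4-month log2 differences of 0.23 and 0.26 (limma adjusted p = 0.630 and 0.589) and 19-month differences of -0.10 and 0.25 (adjusted p = 0.734 and 0.664). *Srp19*, which helps SRP54 onto the RNA, had differences of 0.26 and -0.02 (adjusted p = 0.615 and 0.959). *Srp68* and *Srp72*, which bind the RNA as a pair, had 4-month differences of 0.16 and -0.02 (adjusted p = 0.600 and 0.948) and 19-month differences of -0.08 and 0.02 (adjusted p = 0.754 and 0.951). *Srpr* and *Srprb*, the subunits of the receptor, had 4-month differences of 0.02 and 0.21 (adjusted p = 0.925 and 0.587) and 19-month differences of -0.07 and -0.09 (adjusted p = 0.798 and 0.782). Their summed level ran from 13699 to 15727 normalized counts in WT and from 13506 to 20247 in *Gde2*KO at 4 months, and from 12665 to 13257 and 12575 to 13051 at 19 months.

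Downstream of SRP, limma called 0 of 24 translocon, signal peptidase and oligosaccharyltransferase genes and 0 of 18 genes for insertion into the ER without SRP, in each of the 3 comparisons. Over the 49 genes of the 3 lists, 1 had an unadjusted p under 0.05 at 4 months, 3 at 19 months and 5 for the change with age. Over all genes tested, 2025 of 19035, 1285 of 18583 and 2408 of 18731 did, in the same order. With 0.126% or less of all genes called, 0 calls in lists of this size is not read as an absence of change. Log2 differences of the 49 genes ran from -0.14 to 0.54 at 4 months and from -0.22 to 0.25 at 19 months. The medians were 0.18 and -0.03, beside 0.11 and -0.02 over all genes. The largest 4-month difference, 0.54 (limma adjusted p = 0.463), was that of *Spcs3*, a signal peptidase subunit gene. None of the 49 reached the 4-month log2 differences of *Srp54a* and *Srp54b*, 1.29 and 1.45. *Srp54a* and *Srp54b* were chosen for their genotype differences in these same libraries, so nothing is read from this comparison.

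**Figure D5:**
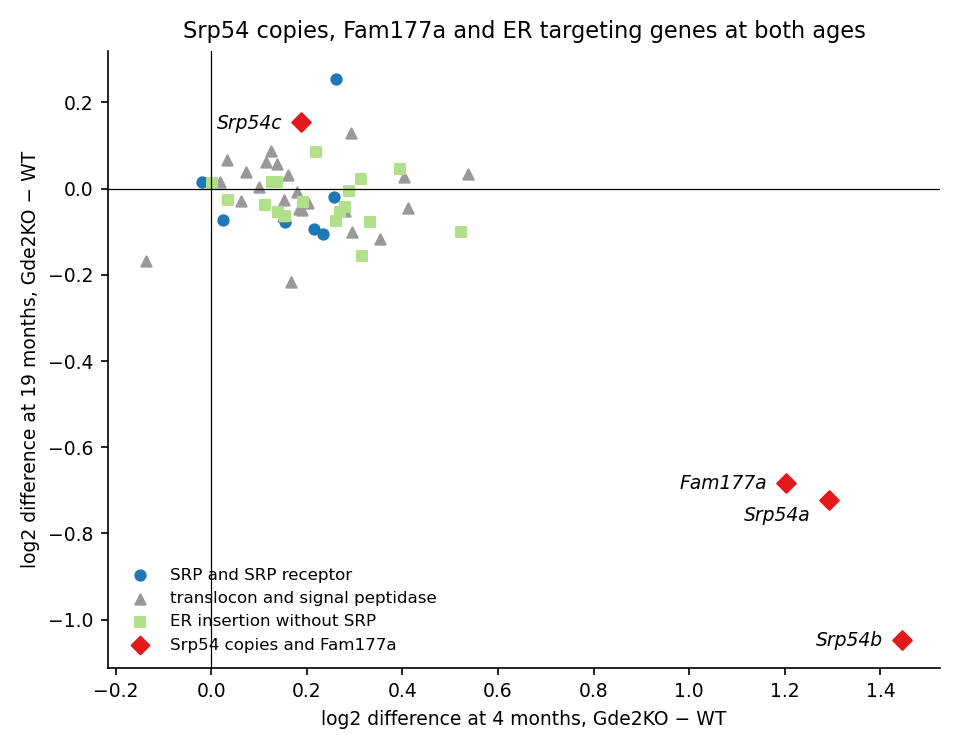
Log2 difference, *Gde2*KO minus WT, at 4 months (x axis) and at 19 months (y axis), for the *Srp54* copies, *Fam177a* and 49 genes of the ER targeting lists; each point is a gene. The 49 genes lie between -0.14 and 0.54 at 4 months and between -0.22 and 0.25 at 19 months. *Srp54a*, *Srp54b* and *Fam177a*, which were chosen on these contrasts, lie in the lower right.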

How the data were processed

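Cortical RNA of 3 mice per group was sequenced. The authors pseudoaligned reads to GRCm38 transcripts with kallisto and normalized them in sleuth, whose versions are not given in the sources used here. They deposited 2 signal tables, estimated counts and TPM per transcript, each divided by a factor for the library. Transcripts were summed by gene. Genes with 5 normalized counts or more in at least 47% of libraries were tested by limma 3.58.1 with an intensity trend (R 4.3.3) on log2(value + 0.5), with Benjamini-Hochberg adjustment over all genes tested, and a fold change on this scale understates that of low genes. The interaction term is the difference at 19 months minus that at 4 months. limma stood in for the Wald test of sleuth. The fit was run on simulated counts that held no differences in brain region or sex between libraries, so it does not test the fit against these. A read's worth was taken from the lowest steps of each column. Positions, transcript sequences and coding sequences are those of GENCODE vM21 on GRCm38. Libraries of a group were taken as separate mice, as the labels number them. Genes named are the 4 genes and their transcripts, *Gdpd5*, called genes of the ER targeting lists and within 1 Mb, 7 SRP genes, the 2 nearest tested neighbours on either side and the 5 genes most like the *Srp54* sum and *Fam177a*. *Gm2446*, *Gm2436* and *Spcs3* were added after their values were seen. The genes and lists were chosen with earlier results of these data known. Replicate numbers were not taken to pair the 4-month libraries. The deviations of same-numbered libraries had correlations of 0.06, 0.007 and -0.05 across genes, and those of differently numbered libraries -0.14 to 0.11. With 3 libraries per group these values cannot exclude a pairing. Alternatives were other pseudocounts and filters, TPM, rescaling, no trend, a replicate block at 4 months and leaving out libraries.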

Additional observations from a re-analysis of the deposited data

Results flagged for a closer look

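*Srp54a*, *Srp54b* and *Fam177a* were higher in every *Gde2*KO library at 4 months and lower in every *Gde2*KO library at 19 months than in the WT libraries of that age. The log2 difference at 19 months minus that at 4 months was -2.02 for *Srp54a*, -2.49 for *Srp54b* and -1.88 for *Fam177a*, and -0.03 for *Srp54c*. The 3 genes were selected on these contrasts, so the values are a description. Ages differed in depth and in Y-linked levels, and at 19 months the genotypes differed in summed hippocampal, neuronal and astrocyte markers. The part of these in the differences was not tested.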

How the results depend on the processing

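Of 120 recomputed log2 differences of the *Srp54* copies, their sum and *Fam177a*, 116 stayed within the replicate SD of their value. That of *Srp54b* moved to 1.13 on TPM sums and 1.13 on the means of TPM at 4 months, and to -0.76 on the means of TPM at 19 months. That of *Srp54c* was reversed to -0.015 without *Gde2*KO replicate 3 at 4 months. Leaving out each library gave 1.13 to 1.42 for *Srp54a*, 1.33 to 1.59 for *Srp54b*, -0.02 to 0.36 for *Srp54c* and 1.09 to 1.30 for *Fam177a* at 4 months. The 24 genes called at 4 months became 12 with no filter, 12 with no trend and 14 without both WT replicates 1 and 2, where the lone WT library is assumed to vary like the *Gde2*KO libraries, and 5 to 1510 without single libraries, the highest without WT replicate 3. The 18 called at 19 months became 7 with no trend, 34 without the libraries of low depth and 9 to 45 without single libraries. The 9 called for the change with age became 5 on TPM sums and 6 to 2029 without single libraries, again the highest without WT replicate 3. Without single libraries, 0 to 2 genes within 1 Mb were called at 4 months and 0 to 2 for the change with age (*Egln3* and *Cfl2*), as were 0 to 1 of the ER targeting genes (*Spcs3*), all without WT replicate 3. With a replicate block at 4 months, 21 genes were called, 0 of them within 1 Mb or in the ER targeting lists, and of *Srp54a*, *Srp54b* and *Fam177a* only *Srp54b* remained called. At 19 months no paired analysis was possible because the columns carry no replicate number. Without WT replicate 3, the WT group at 4 months holds only the libraries rich in hippocampal markers, so genotype and brain region cannot be told apart there. Limits include the near-identical sequences of the copies, the regional markers of WT replicates 1 and 2, the weight of WT replicate 3 at 4 months and the depth of 2 libraries at 19 months. The causes of these changes were not tested.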
